A study of Macaca mulatta with 25 samples.

Results

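The cervix was compared between the third and the first day of progesterone in rhesus macaques whose ovaries had been removed and whose hormones came from implants. All animals carried an estradiol implant. The 5 arrays labelled E+1P came from animals with a progesterone implant added for 1 day, and the 5 arrays labelled E+3P from animals with it added for 3 days, with 1 animal per array. They are 10 of the 25 arrays of the series, and all of the 15534 genes with 1 symbol were tested between them. The 5 E2 arrays, from animals given estradiol alone for 14 days, served to tell a change that goes back from a change that begins after day 1. The E+7P and E+14P arrays, 5 each with 7 and 14 days of progesterone, are used for their levels. The labels do not give how long estradiol had lasted in the progesterone groups, nor the animals' ages, and the group sizes in the design text of the series are not the 5 of the labels. Implants in animals without ovaries replace the hormones of a natural cycle, and the animals in each group are different ones, so no animal was followed from day 1 to day 3. Pieces of dissected cervix were homogenized, so fewer cells of a type and less RNA per cell cannot be told apart in any result.

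Progesterone acts through its nuclear receptor, which binds DNA and recruits other regulators, so that some target genes respond within hours while others follow through factors that the first targets encode. In the cervix, estradiol favours abundant watery mucus from the columnar cells of the canal, and progesterone is known for less and thicker mucus and for lower levels of its own receptor and of the estrogen receptor. Mucins are folded in the endoplasmic reticulum, carry sugars added there and in the Golgi, and are held in granules, which makes the secretory pathway a large share of what these cells express.

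Each array gave log2 signals, and its median over all probe sets lay between 5.50 and 5.60. The makeup of the tissue pieces differed within the E+3P group. In E+3P replicate 3 the squamous epithelium list had a mean log2 signal of 9.62, against 4.71 to 5.86 on the other E+3P arrays and 5.07 to 6.78 on the E+1P arrays. For columnar epithelium, E+3P replicates 2 and 3 had means of 4.99 and 6.24, against 7.11 to 7.47 in E+1P, and the ciliated cell list at 4.40 and 4.46 against 6.02 to 6.79. Replicate 1 of E+3P was also below every E+1P array, at 6.39 in the columnar list and 5.87 in the ciliated list. Replicates 2 and 3, and 2 arrays of E+14P, are called divergent arrays here, since the mean of a squamous, columnar or ciliated list lay over 4 scaled median absolute deviations from its median over the series. Replicate 1 lay within that limit, so fits without the divergent arrays still hold an E+3P array low in columnar signal. The smooth muscle list ran from 5.93 to 7.24 in E+1P and from 6.64 to 9.32 in E+3P, highest in replicates 1 and 2, so the groups overlapped in replicate 5 alone. The endothelium list ran from 6.41 to 6.64 in E+1P and from 6.64 to 7.63 in E+3P. Of its 12 members 11 had a change above 0 and 1 was called higher, where 1.76% of all genes were higher. The fat, nerve and skeletal muscle list had 4.63 to 5.25 in E+1P and 4.87 to 7.19 in E+3P, with 0 of 10 members called. The part of these cell types in the results was not tested beyond the fits given. The T and natural killer, B and plasma, macrophage, neutrophil and blood lists held 0 called members of 14, 11, 17, 13 and 4. Results are given with and without the divergent arrays.

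**Figure D1:**
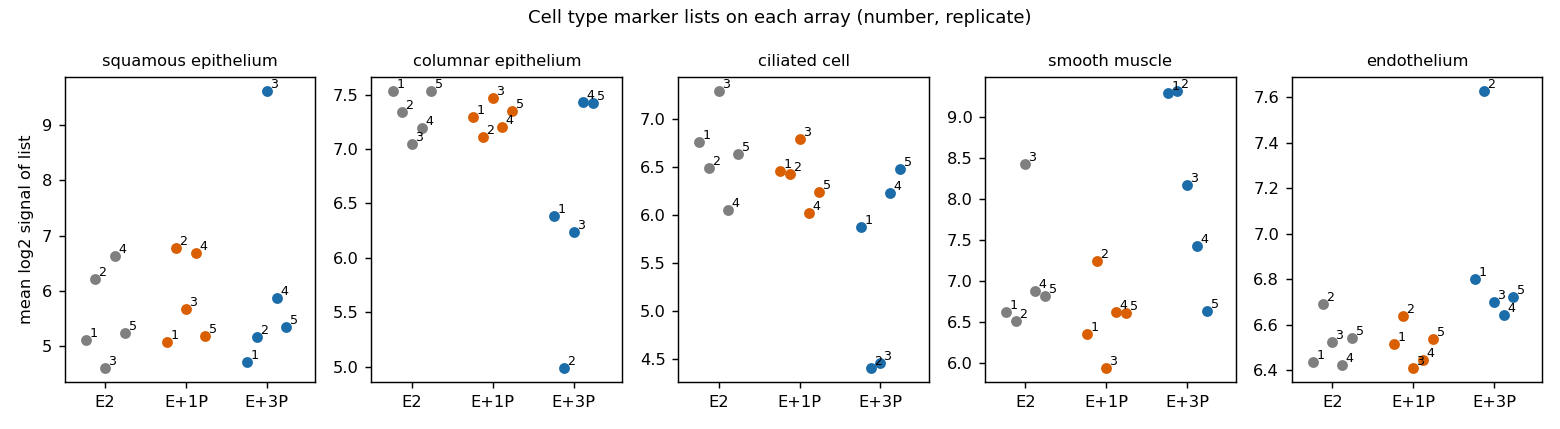
Mean log2 signal of 5 marker lists (vertical axis) on each E2, E+1P and E+3P array, with the replicate number beside each point. E+3P replicate 3 lies at 9.62 in the squamous list, and replicates 2 and 3 lie lowest in the ciliated list, at 4.40 and 4.46.

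Between the 2 days 915 genes differed in limma at an adjusted p of 0.05, which is 5.89% of the genes tested, and falls outnumbered rises. Lower on day 3 were 642 genes (4.13%), 191 of them by at least 2-fold, and higher were 273 (1.76%), 38 of them by at least 2-fold. Centring the arrays on their medians made it 814 lower and 184 higher. The main fit takes its spread from all 5 groups, and a fit of the 2 groups alone called 148 lower and 25 higher. By comparison, in the main fit 552 genes (3.55%) differed between E+1P and E2, and 1895 (12.2%) between E+3P and E2. The count of 915 rests on single arrays. It was 444 without E+3P replicate 2, 588 without replicate 1 and 1897 without replicate 5, and 495, 452, 575 and 581 without E+1P replicates 1, 3, 4 and 5. The lower genes alone numbered 357 without E+3P replicate 2, 1135 without E+3P replicate 5 and 393 and 360 without E+1P replicates 1 and 3. The higher genes ranged from 87 without E+3P replicate 2 to 762 without E+3P replicate 5, the array with the least smooth muscle signal of its group. Omitting E+1P replicate 1, 3, 4 or 5 left 102, 92, 131 and 150 higher genes, and omitting E+3P replicate 1 left 141. Of the lower genes 292 kept their call whichever of the 10 arrays was left out, and of the higher genes 55. Leaving out the divergent arrays gave 227 lower and 47 higher genes, and 210 and 31 of these were among those called with all arrays. In that fit every one of the 915 genes kept the sign of its change. The genes were chosen by that change and the fit reuses most of the same arrays, so the kept signs are no separate support.

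**Figure D2:**
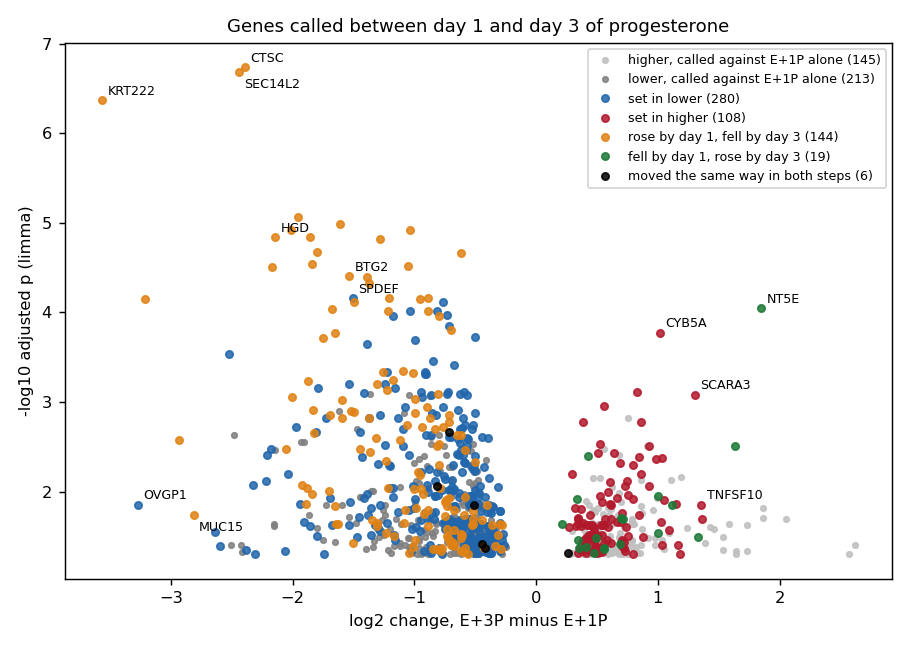
Log2 change from E+1P to E+3P (horizontal axis) against -log10 of the limma adjusted p (vertical axis) for the 915 called genes, coloured by how each stood against E2. The genes that rose by day 1 and fell by day 3 hold the lowest p values, with CTSC, SEC14L2 and KRT222 at the top.

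The called genes were sorted by the calls against E2. There were 144 genes that had risen by day 1 and fell by day 3, and 19 that had fallen and then rose. Another 280 genes set in lower and 108 set in higher, which means that they were called on day 3 against both E+1P and E2 but not on day 1 against E2. Only 6 moved the same way in both steps, 5 down and 1 up. The remaining 213 lower and 145 higher genes were called against E+1P alone. These counts too moved with single arrays. Without E+3P replicate 5 the 4 main classes held 232, 47, 551 and 351 genes, in the order given. Without E+3P replicate 2 there were 12 that fell and rose, 143 that set in lower and 39 that set in higher, and without E+3P replicate 1 there were 65 that set in higher. Without E+1P replicate 1 the 4 counts were 87, 9, 177 and 45, and without E+1P replicate 3 they were 88, 9, 162 and 46. Without E+1P replicate 4 those that fell and rose numbered 12 and those that set in higher 62, and without E+1P replicate 5 there were 94 that rose and fell, 8 that fell and rose and 67 that set in higher. Leaving out E2 replicate 4 gave 11 that fell and rose, and E2 replicate 2 or 5 gave 65 that set in higher. The E+1P arrays enter both the first and the second step, so an error in their mean gives the steps opposite signs. Of the 324 genes that had risen by day 1, 44.4% reversed, and of the 228 that had fallen, 8.33% did. A further 74 of the risen genes and 139 of the fallen ones were still called on the same side of E2 on day 3 and were not called between the days.

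The 144 genes that rose and fell had a median change of 1.0 on the log2 scale by day 1 and of -0.99 from day 1 to day 3, and 69 of them fell by at least 2-fold. On day 3, 136 were not called against E2, 5 were called below it and 3 above it. The largest fall was that of KRT222, a gene of the keratin family. Its log2 signal was 7.84, 7.04, 8.54, 7.36 and 7.63 on the E+1P arrays and 4.10, 4.67, 3.54, 3.95 and 4.33 on the E+3P arrays. Every E+3P array lay below every E+1P array, and the mean, 4.12, was under that of E2, 4.84. The change of -3.56 (95% confidence interval -4.21 to -2.91, adjusted p = 4.29e-07) is 11.8-fold, and it was -3.55 without the divergent arrays.

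CTSC, the lysosomal peptidase cathepsin C, had signals of 8.87, 9.11, 9.73, 9.63 and 9.85 in E+1P and of 6.81, 6.69, 7.58, 7.20 and 6.93 in E+3P, again with no overlap. It fell by 2.39 (adjusted p = 1.83e-07) after rising by 1.87 on day 1. SEC14L2, which encodes a lipid-binding protein that carries tocopherol, had 8.03, 8.57, 8.28, 8.21 and 8.38 and then 5.95, 5.46, 5.27, 6.21 and 6.38, and fell by 2.44 (adjusted p = 2.09e-07). HGD, homogentisate dioxygenase of tyrosine breakdown, was at 6.18 to 7.23 in E+1P and at 4.28 to 4.99 in E+3P, where the E2 arrays had 4.24 to 4.69. Its change was -2.14 (adjusted p = 1.46e-05). The zinc finger gene ZNF385B was at 5.85 to 6.99 in E+1P and at 3.70 to 5.0 in E+3P, a change of -2.02 (adjusted p = 1.19e-05). All 4 of these changes kept their call without the divergent arrays, with changes of -2.46, -2.12, -2.13 and -1.80.

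Genes of signalling and retinol uptake were in the same class. STRA6, the membrane receptor through which cells take up retinol, was at 8.08, 7.93, 8.09, 7.55 and 7.83 in E+1P and 5.50, 5.63, 5.56, 6.69 and 6.92 in E+3P. All 5 E+3P arrays were lower, replicates 4 and 5 less so than the others, and the change was -1.84 (adjusted p = 2.85e-05). BTG2, an immediate early gene whose product slows cell proliferation, had 9.25, 9.21, 9.03, 8.96 and 8.99 in E+1P and 7.52, 7.24, 6.82, 8.27 and 7.90 in E+3P. It fell by 1.54 (adjusted p = 3.92e-05) to a mean of 7.55, where E2 had 7.53. IL20RA, a receptor subunit for cytokines of the interleukin 20 group, fell by 2.05 (adjusted p = 0.00337), with 7.89 to 9.19 in E+1P and 5.62 to 8.22 in E+3P, with 4 of 5 E+3P arrays below every E+1P array. STRA6 (-1.53), BTG2 (-1.19) and IL20RA (-1.85) were still called without the divergent arrays. With the other 3 groups left out of the fit IL20RA was not (adjusted p = 0.0617), nor with the squamous, columnar and smooth muscle means as 3 covariates (-1.09, 0.114).

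The reversal took in genes of mucus and protein export as well. ST6GALNAC1, a sialyltransferase that caps the sugars of mucins, had 9.87, 9.58, 9.90, 9.72 and 10.00 in E+1P and 6.92, 4.85, 5.71, 8.51 and 8.42 in E+3P. The groups did not overlap, but the E+3P values were spread over more than 3 units. Its change of -2.93 (adjusted p = 0.00264) was -1.86 without the divergent arrays (0.0374), and was not called in a fit of the 2 groups alone (0.0602). MUC15, a membrane mucin, fell by 2.81 (adjusted p = 0.0181), with 8.42 to 10.50 in E+1P and 3.70 to 8.62 in E+3P. The MUC15 call ended without E+1P replicate 3 or 4 (highest adjusted p = 0.0532), without the divergent arrays (-2.25, 0.0619), with the 3 covariates (-1.67, 0.165) and in the fit of the 2 groups alone (0.141). ERO1B, an oxidase that serves disulfide formation in the endoplasmic reticulum, fell by 1.26 (adjusted p = 0.000458), with 8.72 to 9.15 in E+1P and 7.33 to 8.34 in E+3P. SEC62, of the channel through which proteins enter the endoplasmic reticulum, was at 9.33 to 9.59 and then at 8.36 to 8.88, a change of -0.79 (adjusted p = 0.000108). The ERO1B and SEC62 calls held without any single array, without the divergent arrays and with the 3 covariates.

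MME and RGCC were also in the class, and neither was called against E2 on day 3 (differences 0.77 and 0.92, adjusted p = 0.177 and 0.147). MME, the membrane peptidase neprilysin and a known progestin target of the endometrium, had 9.10, 8.02, 8.82, 8.87 and 8.31 in E+1P and 7.47, 5.63, 7.43, 7.12 and 6.98 in E+3P. It fell by 1.70 (adjusted p = 0.00977), to a mean of 6.93 against 6.16 in E2, and its later means were 8.33 in E+7P and 7.99 in E+14P. The step from E+3P to E+7P, 1.41, was not called (adjusted p = 0.284). The change from day 1 was -1.43 without the divergent arrays and was then not called (0.065), nor with the 3 covariates (0.108). RGCC, a regulator of the cell cycle, fell by 1.65 (adjusted p = 0.0226) on 4 of 5 arrays, while replicate 5 at 8.71 stayed within the E+1P range of 7.88 to 8.79. Its call ended without E+1P replicate 3 or E+3P replicate 1, 2 or 3 (highest adjusted p = 0.0656), in the fit of the 2 groups alone (0.155), without the divergent arrays (-1.0, 0.235) and with the 3 covariates (-0.71, 0.288).

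The means of the later groups were not used in the sorting, though their arrays share the fit's estimate of the spread. The genes were chosen for a high E+1P mean, so later means below it are a description. Each of the 144 genes had a mean below that of E+1P in both E+7P and E+14P. The mean was nearer to E2 than to E+1P for 129 genes in E+7P and for 138 in E+14P, with median differences from E2 of 0.05 and -0.01. Of the 144 genes 91 kept the call between the days whichever array was left out. When the divergent arrays were left out 74 kept the call, with a median change of -0.80 over the class, and with the 3 covariates 61 did, with a median of -0.70.

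**Figure D3:**
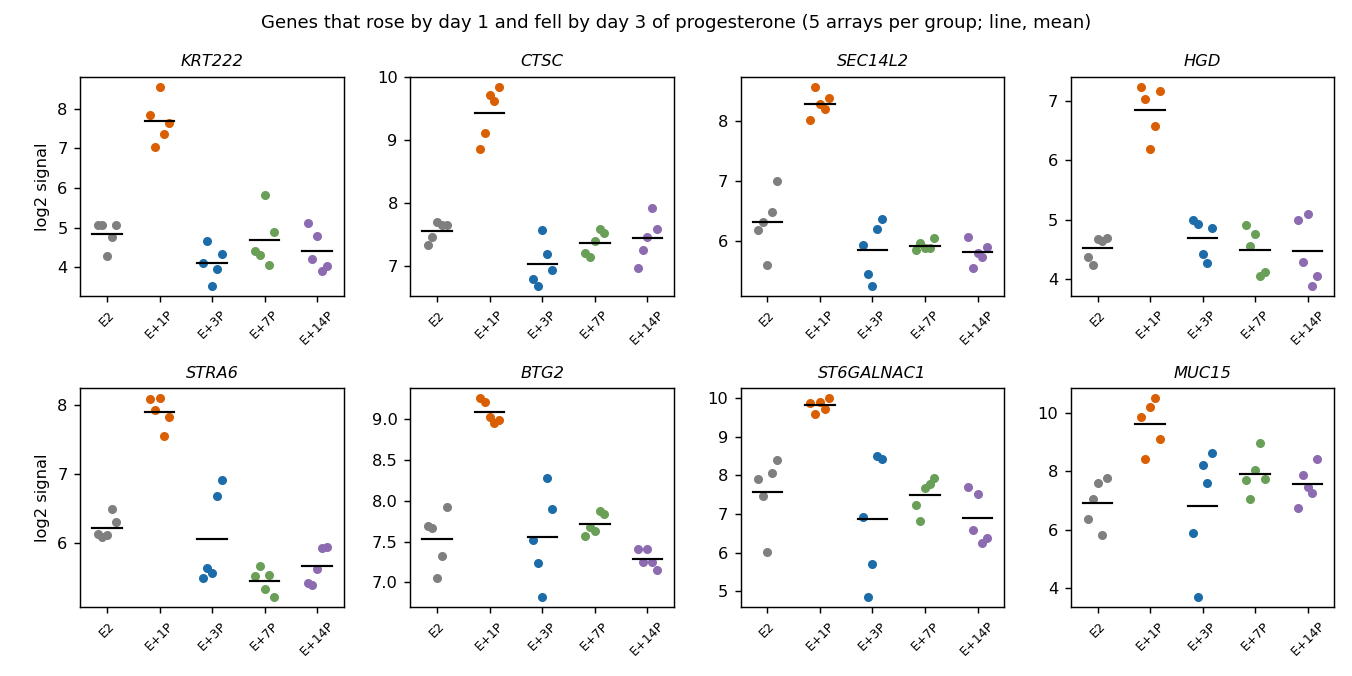
Log2 signal (vertical axis) of 8 genes that rose by day 1 and fell by day 3 on each of the 25 arrays, by group, with the group mean as a line. KRT222 goes from a mean of 4.84 in E2 to 7.68 in E+1P and 4.12 in E+3P, and all 8 genes are lower in E+7P and E+14P than in E+1P.

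The 19 genes that had fallen by day 1 and rose by day 3 moved less, by a median of 0.56, and none of them was called against E2 on day 3. NT5E, the ectoenzyme CD73 that makes adenosine from AMP, had 5.70, 5.82, 5.28, 5.07 and 5.64 in E+1P and 7.84, 7.57, 7.30, 7.41 and 6.65 in E+3P. No array overlapped, and it rose by 1.85 (95% confidence interval 1.34 to 2.36, adjusted p = 9.01e-05) to 7.35, where E2 had 6.68. SERTM1, which encodes a small membrane protein, rose by 1.64 (adjusted p = 0.00312), with 5.02 to 6.03 in E+1P and 6.80 to 7.63 in E+3P, also without overlap. Both calls held without the divergent arrays, at 1.80 and 1.61. NRP1, a co-receptor of semaphorins and vascular growth factor, rose by 1.11 (adjusted p = 0.014), with 6.54 to 6.84 in E+1P and 7.03 to 8.92 in E+3P, with the highest values in E+3P replicates 1 and 2, which were also highest in smooth muscle genes. The gene for protein kinase C beta, PRKCB, rose by 1.0 (adjusted p = 0.0111). Without the divergent arrays NRP1 was at 0.81 (0.103) and PRKCB at 0.94 (0.0689), neither called, and neither was called with the 3 covariates (0.48 and 0.84).

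HAS2, which makes hyaluronan, a large sugar polymer of the cervical matrix, rose by 1.0 (adjusted p = 0.0286) from low signals, 3.15 to 4.01 in E+1P and 3.94 to 5.45 in E+3P. The call ended without E+1P replicate 3 or 5 or E+3P replicate 2 or 3 (highest adjusted p = 0.0988) and without the divergent arrays (0.69, 0.18). ADGRG1, an adhesion receptor, rose by 0.71 (adjusted p = 0.02) and was also called without the divergent arrays (0.84), but not without E+1P replicate 1, 4 or 5 or E+3P replicate 1 (highest adjusted p = 0.0581). SNAP25, a protein of vesicle fusion, was higher by 1.33 (adjusted p = 0.0321), a call that ended without E+1P replicate 1, 3 or 4 or E+3P replicate 1 or 2 (highest 0.11) and without the divergent arrays (1.17, 0.134). Of the 19 genes 6 kept the call whichever array was left out, and 3 without the divergent arrays. In the fit of the 2 groups alone NRP1, HAS2, ADGRG1 and SNAP25 were not called.

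The largest class, 280 genes that set in lower, included some genes of mucus, secretion and mitochondria. Its median change between the days was -0.65, with 70 genes lower by at least 2-fold, and 265 genes had changed by less than 0.5 on day 1. The class needs no call on day 1, so a small day 1 change is in part built in, and 0.5 is near the size of that median. SPDEF, a transcription factor of mucus-making goblet cells, had 7.15, 7.15, 7.01, 6.96 and 7.43 in E+1P and 5.26, 5.61, 5.58, 6.34 and 5.37 in E+3P. The groups did not overlap, and the change of -1.51 (95% confidence interval -1.91 to -1.10, adjusted p = 6.93e-05) brought it below E2 (difference -0.86, adjusted p = 0.00845). On day 1 its difference from E2 was 0.65, not called (adjusted p = 0.085), though every E+1P array lay above every E2 array. The change from E+1P to E+3P was -1.48 without the divergent arrays and -1.39 with the 3 covariates, both called. OVGP1, an estrogen-responsive glycoprotein first known from the oviduct, had 8.74, 10.29, 7.65, 9.46 and 8.20 in E+1P and 5.61, 4.72, 5.02, 5.82 and 6.83 in E+3P, and fell by 3.27 (adjusted p = 0.014). Without the divergent arrays its change was -2.78 and not called (0.138), and with the 3 covariates -3.33 (0.0764).

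GALNT3, an enzyme that starts the O-glycosylation of mucins, was at 9.19, 8.44, 8.98, 8.42 and 8.93 in E+1P and 6.30, 4.10, 6.86, 7.83 and 7.81 in E+3P. All 5 E+3P arrays were lower, replicate 2 by the most, and the change of -2.21 (adjusted p = 0.00394) was -1.48 without the divergent arrays, still called (0.00885). AGR3, a disulfide isomerase of secretory epithelia, had 10.50, 10.36, 10.71, 10.27 and 10.66 in E+1P and 8.64, 3.31, 8.08, 9.60 and 9.88 in E+3P, so replicate 2 stood far below the others. Its change was -2.60 (adjusted p = 0.0405) and -1.13 without the divergent arrays (0.0109). The AGR3 call ended without any single one of the E+1P arrays or without E+3P replicate 1 or 3 (highest adjusted p = 0.0883). Over the mucin and mucus list 8 of 32 measured members were lower and 0 higher, where 4.13% of all genes were lower, and its median was -0.84 against 0.05 for all genes. There were 4 lower members without the divergent arrays, and the median was -0.44. With the smooth muscle mean as a covariate 1 member was lower (median -0.38), and with the 3 covariates 3 were (median -0.32). Leaving out E+1P replicate 3 gave 5. The columnar list, of the cells that make mucus, had 3 lower members of 27 and a median of -0.65, or 1 and -0.20 without the divergent arrays, and its part in the mucin result was not tested. The ciliated cell list, not of mucus, had a lower median than the mucin list, -0.96, with 1 lower member of 21. Without the divergent arrays these were -0.19 and 0. In the fit of the 2 groups alone GALNT3 (0.118) and AGR3 (0.23) were not called.

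Other columnar and glandular genes lay in the same class. TSPAN8, a tetraspanin of columnar cells, fell by 2.33 (adjusted p = 0.00851), with 8.69 to 9.29 in E+1P and 4.99 to 8.62 in E+3P, and was at -1.5 without the divergent arrays (0.04). KRT8, a keratin of simple epithelia, had 6.44, 3.30, 3.40, 6.64 and 8.12 in E+3P, so the low values were those of replicates 2 and 3. Its change of -2.64 (adjusted p = 0.028) was not called without those arrays (-1.15, 0.111), without either of them or without E+1P replicate 1, 3, 4 or 5 (highest 0.0961). SLC15A2, a peptide transporter, had 8.56, 8.27, 8.35, 8.81 and 8.45 in E+1P and 5.82, 4.47, 5.29, 6.70 and 7.56 in E+3P and fell by 2.52 (adjusted p = 0.000287), a call kept under each of these fits. On day 1 it differed from E2 by 1.29, not called (adjusted p = 0.0705), with every E+1P array above every E2 array. ISG20, an exonuclease induced by interferon and estrogen, fell by 2.18 (adjusted p = 0.00331), and was at -1.5 without the divergent arrays (0.035). LYZ, lysozyme, fell by 1.54 (adjusted p = 0.0233, and an adjusted p of 0.055 without E+1P replicate 5) and was at -0.93 without the divergent arrays (0.0455). SLPI, a secreted protease inhibitor, fell by 1.86 (adjusted p = 0.0239), but replicates 4 and 5 of E+3P were at 12.37 and 12.15, near the E+1P range of 12.21 to 12.73. The SLPI call ended without E+1P replicate 1, 3 or 5 or E+3P replicate 1, 2 or 3 (highest 0.0656) and without the divergent arrays (-0.91, 0.174). With the 3 covariates, and in the fit of the 2 groups alone, TSPAN8, KRT8, ISG20, LYZ and SLPI were not called. TSPAN8 and KRT8 are in the columnar list whose mean is 1 of the covariates, so their loss there is in part by construction.

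Genes of the path from the endoplasmic reticulum to the Golgi were lower by smaller steps, which differed less between arrays than those of GALNT3 or AGR3. LMAN1, a lectin that carries glycoproteins out of the endoplasmic reticulum, had 10.05, 9.98, 9.98, 9.83 and 10.00 in E+1P and 9.17, 8.99, 9.22, 9.46 and 9.18 in E+3P. The groups lay apart, and the change was -0.77 (95% confidence interval -0.98 to -0.56, adjusted p = 7.62e-05). SEC22B, a fusion protein of transport vesicles, was at 9.21 to 9.44 and then at 8.45 to 8.69, a change of -0.73 (adjusted p = 0.000108). TMED3, a cargo receptor of transport vesicles, fell by 1.03 (adjusted p = 9.57e-05), with 8.40 to 9.04 in E+1P and 7.37 to 7.87 in E+3P. None of the 3 had moved on day 1 by more than 0.14. Without the divergent arrays the changes were -0.70, -0.71 and -0.99, and with the 3 covariates -0.70, -0.71 and -0.85, all called. Of 33 members of the transport list 7 were lower and 0 higher (median -0.25), where 4.13% of all genes were lower, and 30 of the 33 had a change below 0. On day 1 none was called against E2, but 27 already had a change below 0 (median -0.16). Of these, 4 were lower without the divergent arrays, with a median of -0.23, and without E+3P replicate 4 there were 11.

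The list of folding and entry into the endoplasmic reticulum had 10 lower members of 43 and 0 higher, with a median of -0.21, where 4.13% of all genes were lower. On day 1 its median difference from E2 was -0.32, with 37 members below 0, 9 of them called lower. The 3 members called higher on day 1, with SEC62 and ERO1B among them, are part of the 10 lower ones. They reversed and were not called against E2 on day 3, so they did not set in lower. Another of the 10, DNAJC3, fell in both steps. For the step to day 3 there were 8 lower without the divergent arrays (-0.22) and 17 called without E+3P replicate 4. SSR4, of the complex beside the protein channel, fell by 0.72 (adjusted p = 0.000775), with 9.73 to 10.32 in E+1P and 9.03 to 9.62 in E+3P. Of 35 genes of N-glycosylation 11 were lower and 0 higher (median -0.17), or 4 without the divergent arrays (-0.16), 5 and 6 without E+1P replicates 1 and 3 and 6 without E+3P replicate 2. On day 1 the median of the N-glycosylation list was -0.16, with 30 members below 0 and 4 called lower. GFPT1, which makes the first step of amino sugar synthesis, fell by 0.86 (adjusted p = 0.00133), and TUSC3, a subunit of the enzyme that transfers sugar chains to proteins, by 1.04 (adjusted p = 0.00394). RPN1, another subunit of that enzyme, fell by 0.57 (adjusted p = 0.00309), which was not called without the divergent arrays (-0.41, 0.0669), with the 3 covariates (0.054) or in the fit of the 2 groups alone (0.0595). No E+3P array reached the E+1P range for any of SSR4, GFPT1, TUSC3 and RPN1.

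Some mitochondrial genes were in the same class. ATP5MC2, a subunit of the ATP synthase ring, was at 10.39, 10.33, 10.34, 10.36 and 10.49 in E+1P and 9.81, 9.91, 9.87, 9.96 and 9.86 in E+3P. Its change of -0.50 (95% confidence interval -0.65 to -0.35, adjusted p = 0.000187) is only 1.42-fold, but the arrays of a group differed by less than 0.2. The complex I subunits NDUFA1 and NDUFB5 fell by 0.91 (adjusted p = 0.0023) and 0.73 (adjusted p = 0.000814), and COX4I1, of cytochrome oxidase, by 0.57 (adjusted p = 0.000842). MRPL33, a protein of the mitochondrial ribosome, was at 9.59 to 9.98 and then at 8.69 to 8.91, a change of -1.0 (adjusted p = 0.000205). For all 5 genes the groups did not overlap and the call held without any single array, without the divergent arrays and with the 3 covariates. Of 54 respiratory chain genes 8 were lower and 0 higher, and 49 had a change below 0 (median -0.18). Of 55 mitochondrial ribosome genes 5 were lower and 0 higher (median -0.12), where 4.13% of all genes were lower. Both lists already lay below E2 on day 1, with medians of -0.17 and -0.17, 49 of 54 and 50 of 55 members below 0, and 1 and 2 called lower. With the divergent arrays left out the counts were 6 and 2 and the medians -0.24 and -0.18, so the medians were not nearer to 0 without them. Leaving out E+1P replicate 1, 3 or 4 left 5 respiratory chain genes, and leaving out E+1P replicate 3 or E+3P replicate 1 or 2 left 3 of the mitochondrial ribosome. In the proteasome list 2 of 28 were lower, with a median of -0.01.

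**Figure D4:**
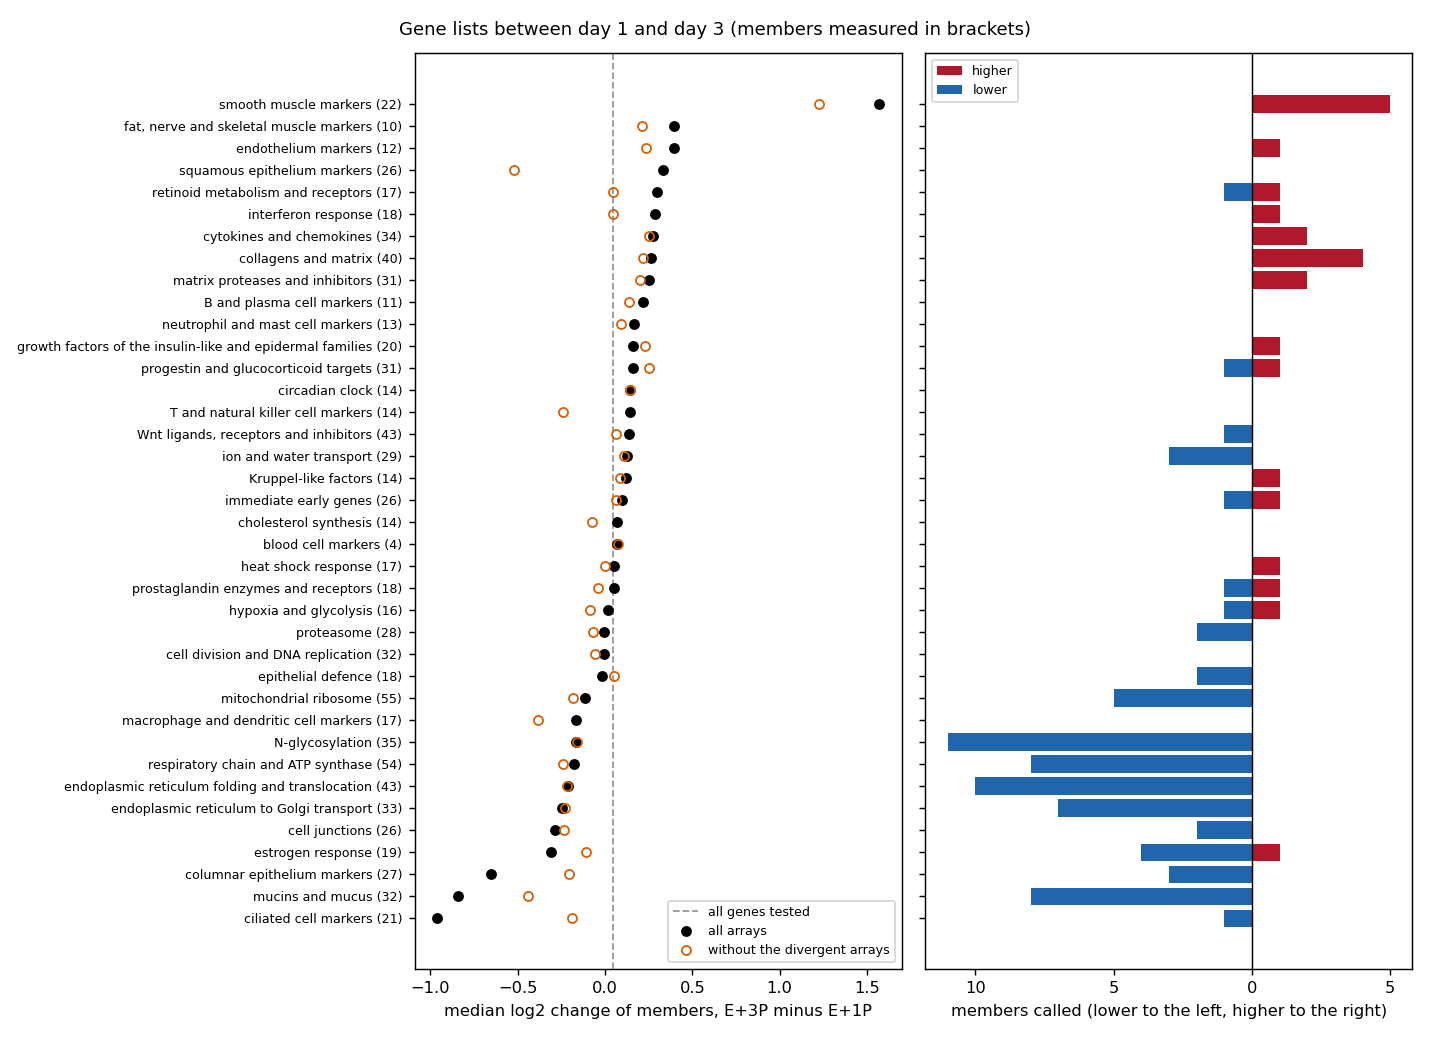
Median log2 change from E+1P to E+3P of each gene list with and without the divergent arrays (left) and the number of members called (right). The ciliated cell list lies lowest, at -0.96, the mucin list at -0.84 and the smooth muscle list at 1.57, against 0.05 for all genes tested. The secretory and mitochondrial lists hold lower calls and no higher ones.

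Estrogen response genes were lower in part. GREB1, an estrogen receptor target and cofactor, had 7.66, 7.69, 7.77, 7.80 and 7.95 in E+1P and 6.61, 6.22, 7.34, 6.36 and 6.36 in E+3P, and fell by 1.20 (adjusted p = 0.00516) on all 5 arrays. CCND1, the cyclin of the first gap phase, was at 7.84 to 8.02 and then at 6.89 to 7.29, a change of -0.87 (adjusted p = 0.000852), though E+3P was not called against E2 (-0.37, 0.0978). Both calls held without the divergent arrays (-1.33 and -0.94). With OVGP1 and AGR3, which are also in the mucin list, this makes 4 lower members of 19. Of all genes 4.13% were lower and 1.76% higher. IGFBP4, which binds insulin-like growth factors, was the 1 higher member (1.05, adjusted p = 0.0435). Its call ended without E+1P replicate 1, 3, 4 or 5 or E+3P replicate 1, 2 or 3 (highest 0.143) and without the divergent arrays (0.85, 0.224). The list's median was -0.31, or -0.11 without the divergent arrays, and 3 of the 5 calls were left on omitting E+1P replicate 1, 3, 4 or 5, or E+3P replicate 1 or 3. Already on day 1 the estrogen response list lay below E2, with a median of -0.46, 13 of 19 members below 0 and 4 called lower. Of 32 cell division genes 0 were called between the days, with a median of -0.01.

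Some genes of enzymes also set in lower. HK2, a hexokinase of glycolysis, fell by 1.37 (adjusted p = 0.00151), with 6.77 to 7.30 in E+1P and 4.81 to 6.39 in E+3P, with no overlap. PLA2G4A, the phospholipase that frees arachidonate for prostaglandin synthesis, fell by 1.43 (adjusted p = 0.00409), with 7.63 to 8.18 in E+1P and 5.79 to 7.54 in E+3P. Without the divergent arrays HK2 was at -1.19 and called (0.0372), and PLA2G4A at -1.11 and not (0.0803). SFRP1, a secreted inhibitor of Wnt signalling, fell by 0.80 (adjusted p = 0.0108) on 4 of 5 arrays and was not called without the divergent arrays (-0.63, 0.113), though it was with the 3 covariates (-0.93, 0.0168). Among 29 ion and water transport genes 3 were lower and 0 higher, where 4.13% of all genes were lower, with a median of 0.13. They include CA2, a carbonic anhydrase, at -1.87 (adjusted p = 0.018, and 0.0509 without E+1P replicate 5), which was not called against E2 on day 3 (adjusted p = 0.0555) and so belongs to the genes called against E+1P alone. None of HK2, PLA2G4A, SFRP1 and CA2 was called in the fit of the 2 groups alone, and of these SFRP1 alone was with the 3 covariates.

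Later levels of the class were in between. In E+7P 278 of the 280 genes had a mean below that of E+1P, as in E+14P, with median differences from E+1P of -0.44 and -0.50 against -0.65 on day 3. The genes were chosen for an E+3P mean below those of E+1P and E2, so these later means are a description. Of the 280 genes 140 kept the call between the days whichever array was left out, 102 kept it without the divergent arrays (median -0.57) and 83 with the 3 covariates (median -0.52).

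Fewer genes, 108, set in higher, by a median of 0.55, and 105 of them had changed by less than 0.5 on day 1, which is again in part built into the class. CYB5A, cytochrome b5, an electron donor to lipid and steroid enzymes, had 7.97, 8.24, 7.95, 8.10 and 8.16 in E+1P and 9.17, 9.29, 8.47, 9.22 and 9.36 in E+3P. Replicate 3 was the lowest of E+3P and still above every E+1P array, and the rise was 1.02 (95% confidence interval 0.72 to 1.31, adjusted p = 0.000169). SCARA3, a scavenger receptor gene tied to oxidative stress, rose by 1.30 (adjusted p = 0.000831), with 5.02 to 5.55 in E+1P and 6.20 to 6.96 in E+3P, and its mean was 7.10 in E+7P. TNFSF10, which encodes the death ligand TRAIL, had 7.44, 7.71, 7.95, 7.55 and 7.60 in E+1P and 8.60, 8.18, 9.12, 8.94 and 10.18 in E+3P. No array overlapped, replicate 5 was highest, and the rise was 1.36 (adjusted p = 0.0139). The later means of TNFSF10 were 9.77 in E+7P and 9.59 in E+14P. The fit of the 2 groups alone did not call it (0.0696).

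FOXO1, a transcription factor of the progesterone-exposed endometrium, was at 8.76, 8.92, 8.57, 8.69 and 8.93 in E+1P and 10.42, 9.52, 9.29, 9.73 and 9.55 in E+3P. It had not moved on day 1 (0.13 against E2) and rose by 0.93 (adjusted p = 0.00866) on all 5 arrays. CYB5A, SCARA3, TNFSF10 and FOXO1 kept their calls without any single array, without the divergent arrays (1.16, 1.42, 1.59 and 1.13) and with the 3 covariates (0.99, 1.43, 2.05 and 0.62). With the smooth muscle mean alone as covariate FOXO1 was at 0.53 and not called (0.177).

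Other genes of the class were highest in E+3P replicate 1, 2 or 3 and lowest in replicate 4 or 5, as the smooth muscle list was. HSPG2, the basement membrane proteoglycan perlecan, had 7.65, 7.49, 6.72, 6.35 and 6.50 in E+3P against 5.63 to 6.16 in E+1P, a rise of 1.15 (adjusted p = 0.0137). CRYAB, a small heat shock protein, rose by 1.05 (adjusted p = 0.0125), the transporter gene SLCO3A1 by 1.04 (adjusted p = 0.00422) and ELN, elastin, by 0.76 (adjusted p = 0.0108). CSF1, the growth factor of macrophages, rose by 0.84 (adjusted p = 0.0183, and 0.064 without E+3P replicate 2). Without the divergent arrays these 5 were at 1.04, 0.73, 0.68, 0.60 and 0.58, with adjusted p from 0.0645 to 0.191, and none was called. None was called with the 3 covariates or in the fit of the 2 groups alone either. Of the 108 genes 33 kept the call whichever array was left out, 20 without the divergent arrays and 20 with the 3 covariates.

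**Figure D5:**
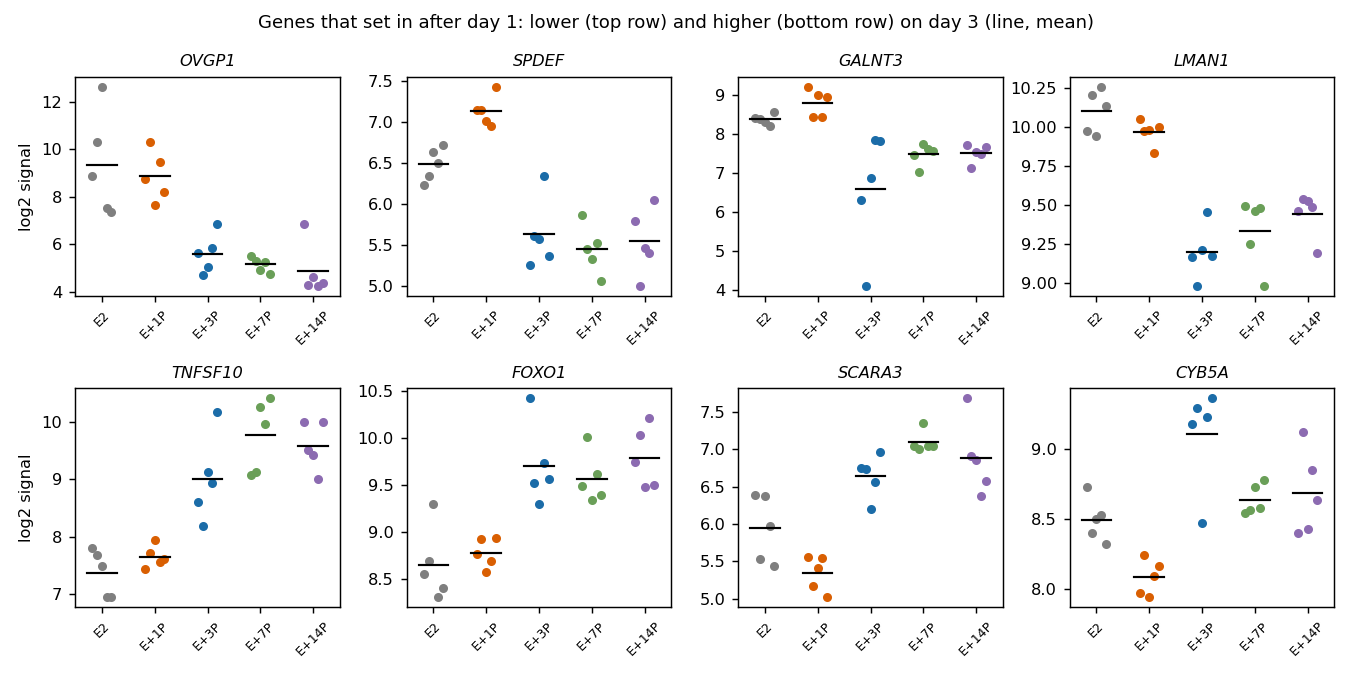
Log2 signal (vertical axis) on each array, by group with the mean as a line, of 4 genes that set in lower and 4 that set in higher after day 1. SPDEF lies at 6.96 to 7.43 in E+1P and at 5.26 to 6.34 in E+3P, and TNFSF10 goes from 7.65 in E+1P to 9.77 in E+7P.

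Smooth muscle genes were among those called against E+1P alone. TPM1, a tropomyosin, had 7.84, 8.55, 7.64, 8.02 and 7.85 in E+1P and 10.46, 10.54, 9.41, 8.98 and 8.41 in E+3P, with replicates 1 and 2 highest and replicate 5 within the E+1P range. It was higher by 1.58 (adjusted p = 0.0231), as were the actin gene ACTA2 by 1.53 (0.0441), TAGLN by 1.64 (0.0453), LMOD1 by 1.73 (0.046) and PGM5 by 2.57 (0.049). These are the 5 called of 22 members, where 1.76% of all genes were higher. All 22 had a change above 0, and the median was 1.57 against 0.05 for all genes. Part of that difference lies in low E+1P values, since the median of E+1P minus E2 was -0.47, with 21 members below 0. Against E2 the E+3P median was 1.05, with all 22 above 0 and 0 called. PTGIS, prostacyclin synthase, at 2.62 (0.0396), ABCC9, a potassium channel subunit of muscle, at 2.05 (0.02), and TNC, the matrix protein tenascin C, at 1.86 (0.0197), were highest on the same arrays. Each of these 8 calls ended without E+3P replicate 1, without E+3P replicate 2 and without E+1P replicate 3, and all but that of ABCC9 without E+1P replicate 1, with the highest adjusted p between 0.0677 and 0.149. ACTA2, TAGLN, LMOD1, PGM5 and PTGIS also lost it without E+1P replicate 4 or 5 or E+3P replicate 3, TAGLN and LMOD1 without E+1P replicate 2, and ACTA2 without E+3P replicate 4. Without E+3P replicate 5, 17 members of the list were called. None of the 8 was called without the divergent arrays, where the list's median was 1.23. With the smooth muscle mean as covariate TPM1 alone of the 8 was called (0.38, 0.0371). That fit sets the list's own median near 0 by construction.

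RDH10, which makes retinal from retinol, was also called against E+1P alone, but was even over the arrays. It had 6.68, 6.83, 7.02, 7.00 and 6.64 in E+1P and 7.64, 7.68, 7.51, 7.52 and 7.68 in E+3P, a rise of 0.77 (adjusted p = 0.0377) without overlap. STRA6, of the same retinoid list of 17, moved the other way, and the remaining members were not called. The RDH10 call ended in 8 of the 10 fits that leave out 1 array, all but those without E+3P replicate 4 or 5 (highest 0.0891), and without the divergent arrays (0.78, 0.141). The fit of the 2 groups alone called it (0.0105).

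The 6 genes with 2 steps the same way were chosen for the text after their values were seen, apart from ALG14. ALG14, of the first steps of N-glycan synthesis, went from a mean of 7.70 in E2 to 7.10 and then 6.38, and the second step was -0.72 (adjusted p = 0.00214). GPC4, a cell surface proteoglycan, went from 7.79 to 7.05 and 6.23 (second step -0.82, 0.0086). C11H12orf57 went from 10.27 to 9.72 and 9.20 (-0.51, 0.0141), and PTRHD1 from 7.64 to 7.14 and 6.69 (-0.45, 0.038). DNAJC3, a co-chaperone of the endoplasmic reticulum, went from 9.89 to 9.43 and 9.01 (-0.42, 0.0422). AFF1, a factor of transcript elongation, was the 1 that rose in both steps, from 8.51 to 8.80 and 9.05 (second step 0.26, 0.0476). ALG14 and GPC4 kept the second call without the divergent arrays (-0.80 and -0.66), and the other 4 did not (adjusted p 0.0926 to 0.189). ALG14, GPC4 and C11H12orf57 kept it whichever array was left out. PTRHD1, DNAJC3 and AFF1 each lost it without E+1P replicate 1 or 5 or E+3P replicate 1 or 2 (highest 0.108, 0.105 and 0.118). PTRHD1 also lost it without E+1P replicate 4 or E+3P replicate 5, DNAJC3 without E+1P replicate 2 or 3 or E+3P replicate 3 or 5, and AFF1 without E+1P replicate 3 or 4 or E+3P replicate 3.

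Several well known responders to progesterone did not pass the test between the days. FKBP5, a co-chaperone of steroid receptors, had 8.12, 8.13, 8.06, 8.14 and 7.87 in E+1P and 7.63, 7.08, 7.71, 7.69 and 8.59 in E+3P. The first 4 E+3P arrays lay below every E+1P array and replicate 5 above them all, and the difference was -0.32 (95% confidence interval -0.77 to 0.12, adjusted p = 0.401). Its level on day 3 was 2.06 above E2. TSC22D3, a target of progestins and glucocorticoids, differed by -0.06 (95% confidence interval -0.38 to 0.26), JUN by 0.10 (95% confidence interval -0.38 to 0.57) and DUSP1, a phosphatase that acts on MAP kinases, by -0.17 (95% confidence interval -0.61 to 0.26). The adjusted p values of these 3 were 0.87, 0.853 and 0.676. For JUN and TSC22D3 the sign of so small a difference turned without the divergent arrays, for JUN also without E+3P replicate 1, and for TSC22D3 without E+1P replicate 1 or 5. Where BTG2 had reversed, the intervals for JUN and DUSP1 hold no fall as large as that of BTG2. In the list of 31 progestin and glucocorticoid targets FOXO1 was higher and MME lower, with a median of 0.16.

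The receptors themselves were not called. PGR, the progesterone receptor, had 9.52, 9.82, 9.29, 9.84 and 9.81 in E+1P and 9.80, 8.90, 9.19, 9.26 and 8.81 in E+3P, with 4 of 5 E+3P arrays below every E+1P array and a difference of -0.46 (95% confidence interval -0.88 to -0.04, adjusted p = 0.187). ESR1, the estrogen receptor alpha, had 7.89 to 8.21 and 7.32 to 8.95, a difference of 0.13 (95% confidence interval -0.29 to 0.56, adjusted p = 0.748) whose sign turned without E+3P replicate 5. On day 3 their differences from E2 were -1.56 (adjusted p = 0.000108) and -0.79 (0.0177). SCGB1D4, a secretoglobin, had 5.07, 2.67, 2.82, 4.99 and 7.86 in E+3P against 5.34 to 6.85 in E+1P. Its values lay far apart in E+3P, and the difference of -1.5 (95% confidence interval -2.89 to -0.11) was not called (adjusted p = 0.196), but was without E+3P replicate 5.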

How the data were processed

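RNA of the cervix of 25 rhesus macaques was purified with Trizol and the RNeasy kit, amplified and labelled with NuGEN kits, and hybridized to Affymetrix rhesus gene arrays, 1 array per animal, per the labels' protocols. The authors deposited log2 signals for 40489 probe sets. Affymetrix Expression Console appears in the submitters' processing notes, without a version, and how the values were normalized was not stated. The sorted values of an array lay within 0.291 of their mean over arrays. The deposited values were used unchanged, and the arrays give no counts, so their number limits the precision.

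The fit was limma 3.58.1 in R 4.3.3 over all 25 arrays with 1 coefficient per group and a mean-variance trend (residual degrees of freedom 20), 2-sided, with Benjamini-Hochberg adjustment over all 40489 probe sets and a threshold of 0.05. It was run on simulated data with known changes, where each probe set had 1 spread in all groups and independent values. The E+3P arrays differ in makeup, which the simulation does not hold, so it does not speak for these calls. A p sets the size of a change against the spread between animals within groups, which the main fit pools over all 5 groups. The platform table gave 16020 probe sets 1 symbol, 490 several and 23979 none, and the 15534 genes were each read from the probe set with the highest mean. Covariates were array means of the marker lists. A fit without the divergent arrays leaves 3 E+3P arrays, and replicate 1, which was low in the columnar list, is 1 of them.

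The classes and the 38 gene lists (934 entries measured) were chosen with earlier results of these data known. Genes were named by a rule, which holds the 15 largest called changes in each direction, the 10 largest of each class, both where the signal reaches 5.54 in the higher group, up to 4 called members of each list, and a fixed set of progestin and receptor genes. Of the 119 genes it gives the text names 79, and 12 more were chosen after their values were seen.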

Additional observations from a re-analysis of the deposited data

Results flagged for a closer look

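Among the named genes, 9 of the 182 groups of 5 arrays held 1 array far from the other 4 by Dixon's test. That is near the share that chance gives, about 1 in 20, so the arrays below are listed as a description. In E+3P replicate 2, a divergent array, the log2 signal of AGR3 was 3.31 against 8.08 to 9.88 on the other E+3P arrays, that of MME 5.63 against 6.98 to 7.47, and that of ELN 6.12 against 5.33 to 5.51. In E+3P replicate 3, also divergent, CYB5A was at 8.47 against 9.17 to 9.36. In E+3P replicate 5 TSC22D3 was at 7.40 against 6.64 to 6.86.

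On the E+1P arrays ACTA2 was at 7.05 in replicate 3, against 8.95 to 9.67 on the others. DUSP1 was at 6.48 in replicate 4 against 7.29 to 7.62. FKBP5 was at 7.87 in replicate 5 against 8.06 to 8.14, and IL20RA at 7.89 in replicate 2 against 8.94 to 9.19.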

How the results depend on the processing

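Precision is limited by 5 arrays a group. The 6 counts of genes higher, lower, risen then fallen, fallen then risen, set in higher and set in lower were 273, 642, 144, 19, 108 and 280. In the same order they were 25, 148, 59, 7, 7 and 40 in fits of the compared groups alone, 1, 20, 9, 0, 0 and 0 against a minimum change of 1.5-fold, 59, 163, 65, 10, 31 and 68 with the smooth muscle mean as a covariate, 87, 197, 81, 19, 43 and 76 with 3 marker means, and 47, 227, 88, 11, 27 and 87 without the divergent arrays. Centring each array gave 12 fallen then risen and 63 set in higher, leaving out dim probe sets (under the 40th percentile) gave 29 fallen then risen, and array weights 34. Quantile normalization and no variance trend kept all 6 counts within 1.5 times. Leaving out 1 array gave 87 to 762 higher, 357 to 1135 lower, 87 to 232 risen then fallen, 8 to 47 fallen then risen, 39 to 351 set in higher and 143 to 551 set in lower. The cause of these shifts was not tested, other than that fewer arrays enter some fits.

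Of the 91 genes named, 49 lost their call in fits of the compared groups alone, 48 with the smooth muscle mean, 43 with 3 marker means, 37 without the divergent arrays, 74 against the minimum change, and between 1 and 3 under quantile normalization, centring, no variance trend or array weights. Signs turned for 4 uncalled genes. FKBP5 was at 0.0488 with 3 marker means. JUN was at -0.42 with the smooth muscle mean, -0.43 with 3 marker means and -0.0058 without the divergent arrays, and between -0.0358 and 0.28 with 1 array left out. TSC22D3 was at 0.18, 0.23 and 0.0775 in those 3 fits, and between -0.19 and 0.0353 with 1 array left out. ESR1 lay between -0.0636 and 0.34 with 1 array left out. All called genes named here kept their direction under every alternative, which is little support, since they were chosen by that change on largely the same arrays. No paired analysis was possible because each array is a different animal and the labels carry no replicate numbers that pair them.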

Other observations

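The genes that rose by day 1 and fell by day 3 also held 3 of amino acid breakdown and 2 of basement membrane collagen, chosen after their values were seen, as were the histone genes. ALDH6A1, an enzyme of valine breakdown, had 9.65, 9.86, 9.45, 9.76 and 9.92 in E+1P and 7.76, 7.34, 7.04, 8.48 and 9.56 in E+3P, where E2 had a mean of 7.76. All 5 E+3P arrays were lower or, in replicate 5, within the E+1P range, and the change was -1.69 (adjusted p = 0.00138). MCCC1, of leucine breakdown, changed by -1.09 (adjusted p = 0.000447), with 8.53 to 9.0 in E+1P and 7.16 to 8.22 in E+3P. TDO2, which starts tryptophan breakdown, changed by -1.59 (adjusted p = 0.000945), with 3.98 to 5.70 in E+1P and low signals of 3.15 to 4.41 in E+3P. All 3 were called without the divergent arrays (-1.13, -0.89 and -1.5) and without any single array. The basement membrane collagen genes COL4A3 and COL4A4, neighbours that share a promoter region in mammals, changed by -1.88 (0.00912) and -0.61 (0.0324). Neither was called without the divergent arrays (0.0655 and 0.239), and COL4A4 was not without E+1P replicate 1, 3 or 4 or E+3P replicate 1, 2 or 3 (highest 0.0925).

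Histone genes were lower in part. Of 28 with histone cluster symbols 9 were lower and 0 higher, where 4.13% of all genes were lower, with a median of -0.33, or 6 lower and -0.34 without the divergent arrays. Among the 14 of the H2B group 7 were lower, with a median of -0.62. H2BC7 had 7.14, 7.38, 7.55, 7.50 and 7.85 in E+1P and 5.82, 5.36, 7.12, 7.06 and 6.17 in E+3P and changed by -1.18 (adjusted p = 0.0115), and H2BC9 changed by -1.23 (0.0046). Probe sets of different histone genes can share sequence, so the members may not be separate measurements.

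Other lists held few calls, where 1.76% of all genes were higher. The matrix list had 4 higher of 40 (median 0.27), the matrix protease list 2 of 31 (0.25), with ADAMTS5, an enzyme that cuts proteoglycans, at 1.43 (adjusted p = 0.0245), and the cytokine list 2 of 34 (0.28). The ADAMTS5 call ended without E+1P replicate 1, 3 or 4 or E+3P replicate 1 or 2 (highest 0.078). None of the matrix and protease calls was left without the divergent arrays, and 1 of the cytokine calls was. Ion transport genes KCNQ1 (-0.76, 0.0225) and ATP1B1 (-1.24, 0.0184) were lower and not called without those arrays (0.184 and 0.202), nor was KCNQ1 without E+1P replicate 1 or E+3P replicate 3 (highest 0.0588) or ATP1B1 without E+1P replicate 3 or E+3P replicate 2 (highest 0.0547). Of the 24469 probe sets without a single symbol 286 were higher and 561 lower, which is 3.46%.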
